A study of Capra hircus with 6 samples.

Results

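The RAB genes encode small GTPases that mark the membranes of the cell. They were taken as every row of the deposited FPKM table whose gene name is RAB, a number and at most a paralog letter and digit. That rule found 52 of the 27271 genes in the table, and the counts were read by the same Ensembl identifiers. Goat intramuscular preadipocytes, fat precursor cells that lie within muscle, had been isolated by adherence from the longissimus dorsi of young Jianzhou goats. Wild-type cells received either a negative control siRNA, in the 3 libraries named NC, or an siRNA that targets LIPG, the gene of endothelial lipase, in the 3 libraries named Si-LIPG, and the cells of both groups were then driven to adipose differentiation in a medium with oleic acid. The methods of the study call its replicates biological without saying whether they were separate cultures or animals, so p values measure the spread between these libraries.

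A RAB protein works as a switch. A guanine nucleotide exchange factor (GEF) loads it with GTP on a membrane, where it recruits effectors that move, tether or fuse vesicles, and a GTPase-activating protein (GAP) returns it to the GDP form, which leaves the membrane. In fat cells RAB proteins sort the glucose transporter and lipoprotein receptors, and several, RAB18 above all, are found on the surface of lipid droplets. RAB3A belongs to the branch that docks secretory vesicles at the plasma membrane and is best known from synaptic vesicles.

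The comparison of Si-LIPG with NC asked how these genes moved when LIPG was targeted, and whether RAB3A moved as the others did. RAB3A was the RAB gene with the most counted reads in every library. It fell by 1.997 on the log2 scale, a normalized level 3.99-fold lower in Si-LIPG. It was the only 1 of the 22 RAB genes with enough counts to be tested that had an adjusted p under 0.05. Genes called lower at this threshold made up 5.54% of all 6574 tested genes. Taking every read of a file as its library size removed the RAB3A call (edgeR, adjusted p = 0.140). Leaving out NC 1, NC 2, Si-LIPG 2 or Si-LIPG 3 also removed it. The other 21 tested RAB genes had log2 fold changes between -1.57 and 1.59. Of these 16 were positive, as were 3840 of all 6574 tested genes. Measured against the sum of the 51 other RAB genes, RAB3A was 4.41-fold lower in Si-LIPG.

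Depth set how far these values reach. The authors counted reads per gene, and only 524776 to 1051230 of the 36451898 to 52638817 reads in a file were counted on genes. That share was 1.31% ± 0.279 (SD, n = 3) in NC and 2.44% ± 0.566 (SD, n = 3) in Si-LIPG, 1.86 times as high, while 91.6% to 93.7% of reads fell outside the counted features. The protocol keeps the strand of each read, but the strand setting of the counting is not given in the sources used here. ND6, the mitochondrial protein gene that lies on the strand opposite to the other mitochondrial protein genes, had per kilobase 54.2 to 99.3 times the median count of 12 other mitochondrial genes in NC and 22.6 to 49.8 times in Si-LIPG. The reads counted on a RAB gene may therefore be of its transcript or of the opposite strand at the same place, which was not tested. Levels, rises and falls given here are of reads counted on a gene, and are not shown to be of RAB mRNA. LIPG itself had 0, 2 and 0 counts in NC and 0, 2 and 2 counts in Si-LIPG, each below the 3 that a count of 0 allows, so its silencing could not be detected. In bulk samples fewer cells of a type and less RNA per cell cannot be told apart.

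The labelled cell type was checked against its markers. Of 11 mesenchymal and preadipocyte markers 9 were in the files and 8 were tested, with a summed level of 10943 to 13973 CPM (normalized counts per 1000000 reads on genes) in NC and 13888 to 17467 CPM in Si-LIPG. Most of this sum was the collagen gene COL1A1, at 9212 to 12415 CPM in NC and 12381 to 16011 in Si-LIPG. DLK1, a defining preadipocyte marker, was listed at 0 in every library, and LUM, which encodes the matrix proteoglycan lumican, rose with an adjusted p of 0.0395 (edgeR). ENG, which encodes the mesenchymal surface protein endoglin, had a log2 fold change of -1.07 (edgeR, adjusted p = 0.0844) with lower levels in every Si-LIPG library than in any NC library, and 0.44 when scaled to all reads. Of the 8 tested markers 6 had a positive log2 fold change. The summed muscle markers were at 364 to 470 CPM in NC and 381 to 472 in Si-LIPG, and none of the 3 tested was called. Over the 6 libraries the muscle genes MYH3 and DES averaged 196 and 178 CPM. That was above PDGFRA at 125 and PDGFRB at 93.8, and below NT5E at 458 and ENG at 504. MYOD1 was higher in every Si-LIPG library than in any NC library, with a log2 fold change of 0.89 (edgeR, adjusted p = 0.388). No endothelial, macrophage or adipocyte marker had enough counts to be tested. Endothelial markers summed to at most 7.20 CPM, with KDR, TEK and CDH5 at 0, and macrophage markers, with PTPRC at 0, to at most 42.2 CPM. Adipocyte markers summed to 25.9 to 32.4 CPM in NC and 13.9 to 21.2 in Si-LIPG. The part of these cells in the RAB values was not tested.

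RAB3A (ENSCHIG00000007327) had 537, 474 and 606 counts in NC replicates 1 to 3 and 431, 242 and 282 counts in those of Si-LIPG, the order used for all values below. Every Si-LIPG library was below every NC library even though more reads were counted on genes in Si-LIPG. After TMM normalization, which assumes that most genes do not change, the levels were 1741, 854 and 955 CPM in NC and 486, 197 and 206 CPM in Si-LIPG, or 1183 ± 486 (SD, n = 3) against 296 ± 164 (SD, n = 3). NC 1 stood above the other NC libraries and Si-LIPG 1 above the other Si-LIPG libraries, and the groups did not overlap. The log2 fold change was -1.997 with a standard error of 0.42, and edgeR's quasi-likelihood test gave an adjusted p of 0.0395 over the 6574 tested genes, among which RAB3A was number 22 by p. Of all tested genes 5.54% were called lower and 0.974% higher at an adjusted p under 0.05, against 1 and 0 of the 22 RAB genes.

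That call rested on most of the libraries. The log2 fold change kept its sign with any library left out and lay between -2.58 and -1.63, but the adjusted p was 0.0771 without NC 1, 0.0594 without NC 2, 0.240 without Si-LIPG 2 and 0.253 without Si-LIPG 3. It was 0.0365 without NC 3 and 0.00697 without Si-LIPG 1. In the first 4 of these fits no gene at all had an adjusted p under 0.05 by edgeR, with 871 to 1616 genes at an unadjusted p under 0.05.

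The size of the fall depended on what the counts were scaled to. With library sizes alone and no TMM factor the log2 fold change was -1.38 (edgeR, adjusted p = 0.0439). Per 1000000 of all reads in a file (all-read CPM), RAB3A was at 10.2, 11.1 and 13.2 in NC and 8.97, 6.48 and 7.74 in Si-LIPG. The groups still did not overlap, but the NC mean of 11.5 ± 1.51 (SD, n = 3) was only 1.49-fold above the Si-LIPG mean of 7.73 ± 1.25 (SD, n = 3). The log2 fold change on this scale was -0.57 with an adjusted p of 0.140 (edgeR), so the call was lost. On this scale groups that did not overlap and were lower in Si-LIPG were found for 1.17% of the tested genes, and RAB3A was the 1 RAB gene among them. It was also the only tested RAB gene with a negative log2 fold change there, since the other 21 were positive and the median of all tested genes was 1.58.

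The 51 other RAB genes together had 298, 426 and 590 counts in NC and 829, 1365 and 1421 counts in Si-LIPG. They were at 9.49 ± 3.60 (SD, n = 3) all-read CPM in NC and 30.9 ± 11.9 (SD, n = 3) in Si-LIPG, 3.26-fold higher, with no overlap between the groups. After TMM normalization the same sum was 888 ± 106 CPM in NC and 1029 ± 88.8 CPM in Si-LIPG, and the groups overlapped. RAB3A therefore held 64.3%, 52.7% and 50.7% of all RAB counts in NC and 34.2%, 15.1% and 16.6% in Si-LIPG. The share of all RAB genes among gene reads was 0.160% ± 0.0102 (SD, n = 3) in NC and 0.157% ± 0.00990 (SD, n = 3) in Si-LIPG, a difference below the spread between libraries.

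**Figure D1:**
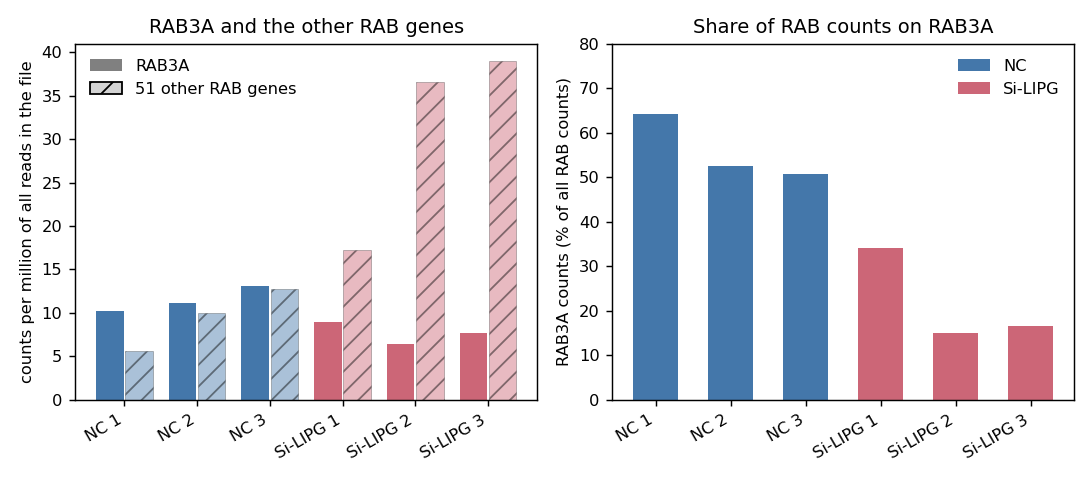
Left, all-read CPM (counts per 1000000 of all reads in the file, linear axis from 0) for RAB3A (plain bars) and for the sum of the 51 other RAB genes (hatched bars) in each NC (blue) and Si-LIPG (red) library; right, the percentage of all RAB counts that fell on RAB3A. The share was 50.7% to 64.3% in NC and 15.1% to 34.2% in Si-LIPG, and the hatched bars of Si-LIPG 2 and 3 reached 36.5 and 39.0.

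Whether RAB3A moved differently from the other RAB genes was tested directly, with the summed counts of the other RAB genes as the library size. The ratio of RAB3A to that sum was 1.80, 1.11 and 1.03 in NC and 0.520, 0.177 and 0.198 in Si-LIPG. The log2 fold change of RAB3A was -2.14 with a standard error of 0.45 and an adjusted p of 0.0182 (edgeR). The study lists RAB3A among its most significant genes from these same libraries. The gene was therefore not chosen independently of these data, and this p is not independent support. With this scaling 8.59% of all tested genes were called lower, so a change against the RAB sum was not particular to RAB3A. Leaving out NC 1, NC 2, Si-LIPG 2 or Si-LIPG 3 raised the adjusted p to between 0.0644 and 0.201.

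Set against each RAB gene alone within a library, the ratio of RAB3A was lower in Si-LIPG without overlap between the groups for 17 of the other 21 tested RAB genes. Over all other tested genes this held for 75.4%, so the count among RAB genes was near that of genes at large. The mean log2 ratio differed by between -4.02 (against RAB10) and -0.70 (against RAB24). Groups overlapped against RAB35, RAB1A, RAB17 and RAB24. For a single ratio an exact two-sided permutation test of 3 libraries against 3 cannot give a p below 0.1.

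**Figure D2:**
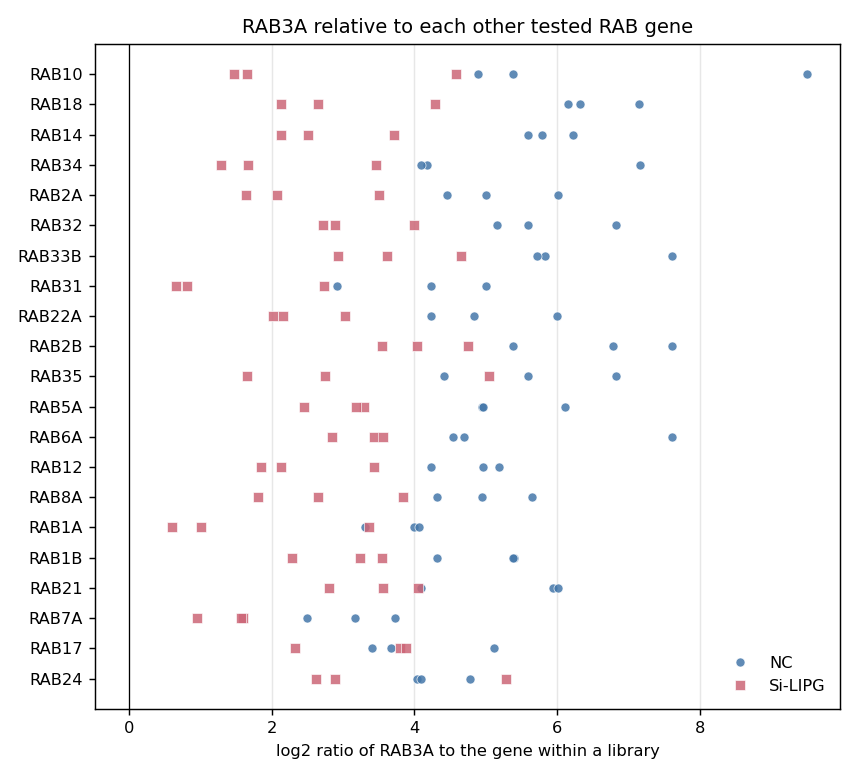
Log2 ratio of RAB3A to each of the 21 other tested RAB genes within a library, from TMM-normalized CPM with a prior count of 2, with 1 point per NC (blue circles) and Si-LIPG (red squares) library. Circles lie to the right of all squares for 17 genes and overlap with them for RAB35, RAB1A, RAB17 and RAB24.

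The RAB genes of regulated exocytosis were otherwise barely counted. Of the 8 in the files only RAB3A was tested. The paralog RAB3D, found on secretory granules outside the nervous system, had 4, 9 and 0 counts in NC and 8, 11 and 7 in Si-LIPG. RAB3B had 0, 0 and 2 in NC and 0, 0 and 1 in Si-LIPG, and RAB3C was listed at 0 in every library. Both are paralogs with neuronal and secretory roles, and neither exceeded 3 counts in any library. RAB27B, which acts in granule docking and exosome release, had 4 counts in each Si-LIPG library and 0 in each NC library, while RAB27A had at most 2. RAB3A had the longest gene model of the tested RAB genes, 5875 bases against a median of 745, as derived from counts and FPKM, so its count overstates its level beside the others.

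FPKM values, which divide by gene length and by the reads on genes, allow levels to be set side by side. RAB3A was at 174, 134 and 147 FPKM in NC and 84.8, 41.9 and 45.7 in Si-LIPG. It ranked first of the 52 in NC 1 and second in NC 2, NC 3 and Si-LIPG 1, but 13th in Si-LIPG 2 and 12th in Si-LIPG 3. RAB7A, which directs late endosomes to lysosomes, had the highest mean level over the 6 libraries, 164 ± 50.9 FPKM (SD, n = 3) in NC and 202 ± 59.7 (SD, n = 3) in Si-LIPG. RAB1A, which carries vesicles from the endoplasmic reticulum to the Golgi, followed with 99.9 ± 31.4 FPKM (SD, n = 3) in NC and 176 ± 93.2 (SD, n = 3) in Si-LIPG. In NC the values of RAB3A overlapped those of RAB7A and lay above every value of RAB1A. In Si-LIPG they lay below every value of RAB7A and overlapped those of RAB1A, which were 71.8, 251.3 and 205.3 FPKM.

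**Figure D3:**
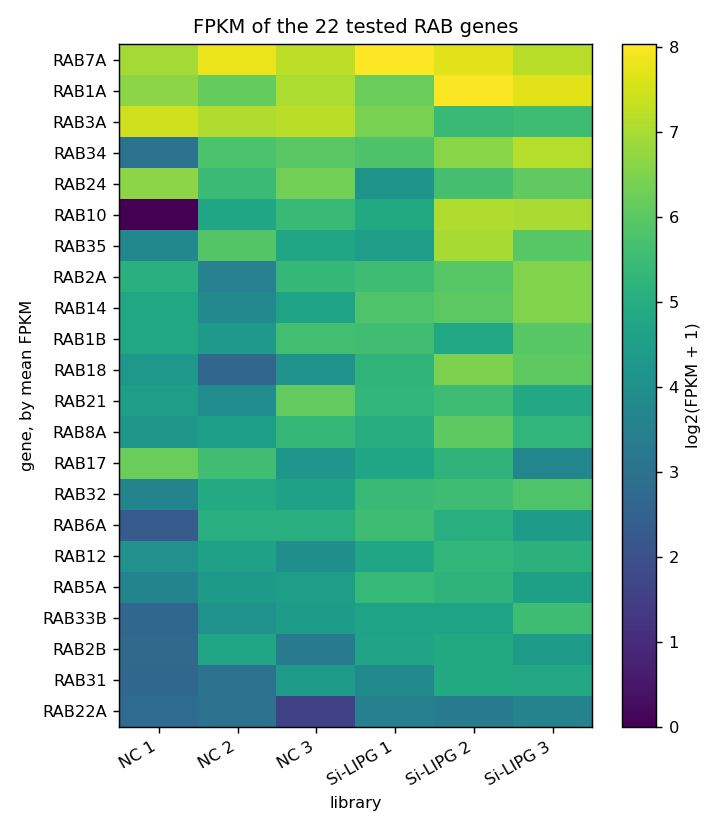
Level of the 22 tested RAB genes as log2(FPKM + 1) (colour) in each of the 6 libraries, with genes ordered by mean FPKM. RAB3A is bright in the NC libraries and darker in Si-LIPG 2 and 3, RAB10 is at 0 in NC 1, and RAB7A is among the brightest throughout.

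By the criterion of the study, an unadjusted p under 0.05 with a fold change over 1.5, 3 RAB genes were lower and 1 was higher in Si-LIPG after TMM normalization. Over all tested genes 12.9% were lower and 7.83% higher at that criterion. The balance turned with the scaling, to 1 lower and 6 higher with library sizes alone and 0 lower and 15 higher when scaled to all reads. DESeq2 gave 3 lower and 3 higher, but over 14848 tested genes. Among these 34 RAB genes had a positive log2 fold change and 14 a negative one. They include RAB genes that were not tested in the main comparison, so the DESeq2 count does not show an effect of scaling. The 2 lower genes beside RAB3A did not pass the adjusted test. RAB17, a RAB of epithelial and recycling traffic, was at 162, 64.8 and 25.2 CPM in NC and 32.7, 37.5 and 11.7 in Si-LIPG. Its groups overlapped, and NC 1, which had the lowest TMM factor, was far above all other libraries. The raw counts of RAB17 were 50, 36 and 16 in NC and 29, 46 and 16 in Si-LIPG. The log2 fold change was -1.57 with a standard error of 0.61 (edgeR, adjusted p = 0.143), and -0.74 without NC 1. Without NC 3 the adjusted p was 0.0422. RAB24, which has been linked to late endosomes and autophagy, was at 104, 28.8 and 53.6 CPM in NC and 10.2, 24.4 and 31.4 in Si-LIPG. Again NC 1 was highest and the groups overlapped. In raw counts NC 3 was the highest NC library for RAB24, with 32, 16 and 34 in NC. Its log2 fold change was -1.43 with a standard error of 0.56 (edgeR, adjusted p = 0.149). Scaled to all reads both turned positive, 0.083 for RAB17 and 0.32 for RAB24.

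RAB18, the lipid droplet RAB, was the 1 gene higher at the criterion. It had 6, 2 and 7 counts in NC and 20, 53 and 42 in Si-LIPG, which were 19.5, 3.6 and 11.0 CPM against 22.6, 43.2 and 30.7 CPM. Every Si-LIPG library was above every NC library, although NC 1 and Si-LIPG 1 were close. The log2 fold change was 1.59 with a standard error of 0.70 (edgeR, adjusted p = 0.203). Scaled to all reads it was 3.21 with an adjusted p of 0.0462, and RAB14 at 2.67 had the same adjusted p, so that 2 RAB genes were higher on that scale, where 11.4% of all tested genes were called higher.

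**Figure D4:**
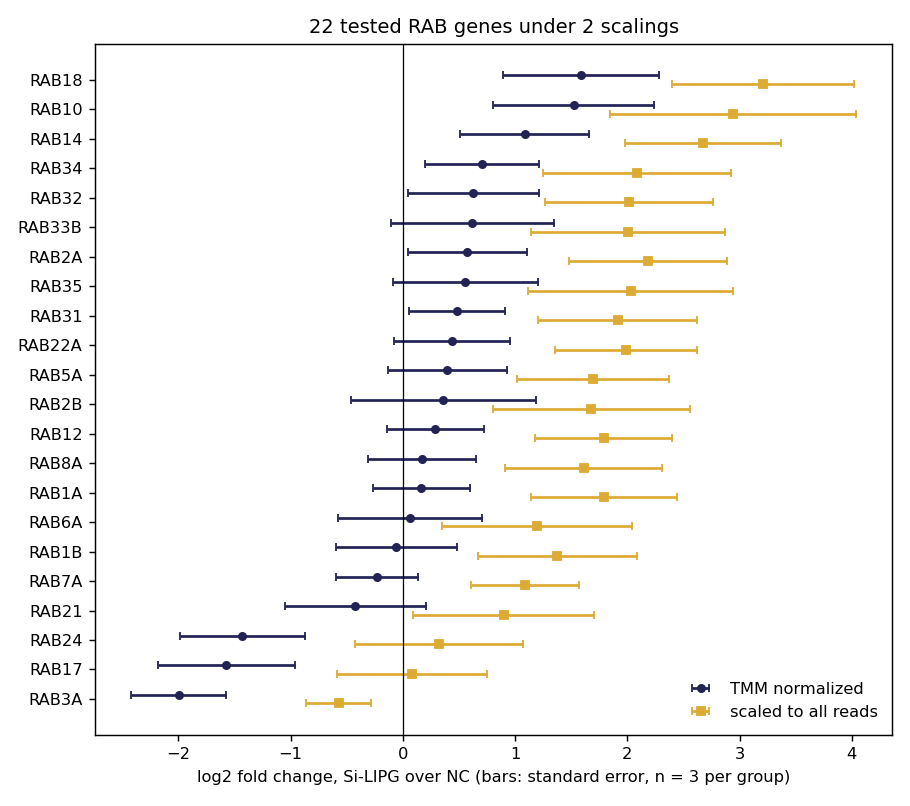
Change of the 22 tested RAB genes from NC to Si-LIPG (log2 fold change, edgeR), with standard errors as bars (n = 3 per group), after TMM normalization (dark circles) and scaled to all reads (yellow squares). RAB3A is the lowest under both scalings and the only gene left of 0 under the second, where the median of the RAB genes is 1.79 against 0.38 after TMM normalization.

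The RAB genes of recycling and polarised traffic, 8 in the files and 5 tested, ran from RAB17 to RAB10. RAB10, which brings vesicles with the insulin-responsive glucose transporter to the surface of fat cells, had 0, 10 and 19 counts in NC and 16, 85 and 87 in Si-LIPG. Its log2 fold change was 1.52 with a standard error of 0.72 (edgeR, adjusted p = 0.245), and the groups overlapped because the normalized level of Si-LIPG 1 lay below that of NC 3. RAB14, which works between endosomes and the Golgi, had 9, 5 and 11 counts in NC and 31, 40 and 62 in Si-LIPG. The normalized groups of RAB14 did not overlap, with a log2 fold change of 1.08 and a standard error of 0.57 (edgeR, adjusted p = 0.308). RAB35, a RAB of fast recycling, and RAB8A, which serves secretion to the surface and the cilium, had log2 fold changes of 0.56 and 0.17.

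Of the 6 early endosome RAB genes 4 were tested and none was called. RAB5A, the RAB of endosome fusion, had 7, 14 and 18 counts in NC and 42, 42 and 28 in Si-LIPG, with a log2 fold change of 0.40. RAB31, which moves cargo between the Golgi and endosomes, had 16, 24 and 79 counts in NC and 63, 152 and 159 in Si-LIPG, with 0.48. RAB22A, another early endosome RAB, had 0.44, and RAB21, which recycles integrins, had -0.42. Of these the groups of RAB5A and RAB22A stood apart on all-read CPM, where 51.9% of all tested genes were higher without overlap. None of the 4 stood apart after TMM normalization.

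Late endosome and lysosome RAB genes numbered 10 in the files and 3 tested. Beside RAB24, RAB7A had a log2 fold change of -0.23 with a standard error of 0.37 from 40, 83 and 66 counts in NC and 141, 124 and 93 in Si-LIPG. RAB32, which serves mitochondria and lysosome-related organelles, had 4, 12 and 11 counts in NC and 25, 30 and 40 in Si-LIPG. Its groups did not overlap after TMM normalization, with a log2 fold change of 0.63 and a standard error of 0.58 (edgeR, adjusted p = 0.609).

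Among the 15 RAB genes of the endoplasmic reticulum and Golgi 8 were tested and none was called. A positive log2 fold change was found for 7, and for 3840 of all 6574 tested genes. Beside RAB18, RAB34, a Golgi RAB that acts on lysosome position, had 3, 25 and 34 counts in NC and 37, 74 and 114 in Si-LIPG, with 0.71 and a standard error of 0.51. RAB1A had 33, 27 and 60 counts in NC and 40, 159 and 139 in Si-LIPG. Its log2 fold change was 0.17 with a standard error of 0.43, and Si-LIPG 1 had fewer counts than NC 3. The log2 fold changes of RAB1B, RAB2A and RAB2B, RABs of the early secretory pathway, were -0.058, 0.57 and 0.36. RAB33B of the Golgi and of autophagy and RAB6A of traffic within the Golgi had 0.62 and 0.066. RAB12, a RAB of endosome-to-lysosome transport, was the 1 gene tested of the remaining 5 and had 0.29.

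Over the 22 tested RAB genes the groups did not overlap after TMM normalization in 4, RAB3A lower and RAB14, RAB32 and RAB18 higher. Over all tested genes 13.4% were lower and 15.2% higher without overlap. On all-read CPM 12 RAB genes were higher without overlap, where 51.9% of all tested genes were. The median log2 fold change of the tested RAB genes was 0.38 against 0.16 over all tested genes, and 1.79 against 1.58 when scaled to all reads. Of the 9 RAB genes in the files that are known from lipid droplets, 8 were tested and 0 were called. After TMM normalization 6 had a positive log2 fold change, as did 3840 of all 6574 tested genes. When scaled to all reads 8 did, as did 6066 of the 6574. A gene could pass the filter on low counts through 1 group alone, so these 22 do not stand for all 52.

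Levels of RAB17 followed those of RAB3A most closely over the 6 libraries, with a Pearson correlation of log2 CPM of 0.736, followed by RAB24 at 0.609, RAB7A at 0.585, RAB1B at 0.256 and RAB21 at 0.226. The lowest were RAB10 at -0.857 and RAB32 at -0.852. These describe 6 libraries that also differ in depth and in group.

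The 30 RAB genes that were not tested had between 0 and 60 counts over the 6 libraries together. RAB3C, RAB9B, RAB25 and RAB36 were listed at 0 throughout. Another 11 of the 52 were counted only in Si-LIPG libraries, and 5 of them in all 3, where 7.32% and 1.17% of all genes in the files were. Si-LIPG libraries had more reads on genes, and the part of this depth in the counts was not tested. RAB6B, the paralog of RAB6A, had 9, 16 and 4 counts there, and RAB28, a RAB of the cilium, had 3, 6 and 20. RAB40C, a RAB that joins a ubiquitin ligase, had 6, 4 and 4, RAB27B had 4 in each, and RAB9A, which returns receptors from late endosomes to the Golgi, had 4, 4 and 1. RAB44 with 1 count and RAB26 with 2 were counted only in NC libraries, as were 2.93% of all genes in the files. A count of 0 allows up to 3 counts, or 2.85 to 5.72 CPM over the gene reads, and such intervals cover counting error only. The number of RAB genes with a count was 25, 30 and 33 in NC and 38, 39 and 41 in Si-LIPG, in the order of the reads on genes in each library.

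The proteins that load, stop and bind RABs were described by a list of 136 regulators and effectors, of which 118 were in the files and 66 were tested. None rose at an adjusted p under 0.05 and 2 fell, where 0.974% of all tested genes rose and 5.54% fell. TBC1D8, of the TBC family of RAB GAPs, had 5542, 4344 and 5618 counts in NC and 4545, 3160 and 2970 in Si-LIPG, with a log2 fold change of -1.81 and a standard error of 0.45 (edgeR, adjusted p = 0.0400). MICAL1, an oxidoreductase of actin that binds RABs, had 403, 437 and 469 counts in NC and 437, 416 and 343 in Si-LIPG, with -1.39 and a standard error of 0.36 (edgeR, adjusted p = 0.0400). Scaled to all reads TBC1D8 was at -0.34 and MICAL1 at 0.077, so the direction of MICAL1 turned, and neither was called. On that scale 3 others were called, all higher, against 11.4% of all tested genes, so the balance of calls turned with the scaling. They were RAB3GAP1, a GAP subunit, and ANKRD27 and DENND5A, both GEFs, and the latter 2 are named after their values were seen. Both calls were also lost without NC 1, NC 2, Si-LIPG 2 or Si-LIPG 3, where the adjusted p was between 0.0594 and 0.253 for TBC1D8 and between 0.0634 and 0.268 for MICAL1. After TMM normalization 4 of the 66 were lower and 4 higher at the criterion of the study, where 12.9% of all tested genes were lower and 7.83% higher.

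Of the proteins that act on RAB3 itself, RAB3GAP1, the catalytic subunit of the RAB3 GAP, had 4, 20 and 21 counts in NC and 62, 68 and 120 in Si-LIPG, a log2 fold change of 1.31 with a standard error of 0.45 (edgeR, adjusted p = 0.0972). Its Si-LIPG libraries had more counts than any NC library, yet it did not pass the adjusted test after TMM normalization. Scaled to all reads it did, with a log2 fold change of 2.68 and an adjusted p of 0.0473 (edgeR). The partner subunit RAB3GAP2 had a log2 fold change of 0.16 (edgeR, adjusted p = 0.891). MADD, the GEF of RAB3, had 0, 6 and 11 counts in NC and 4, 7 and 6 in Si-LIPG and was not tested. The RAB3 effectors of synaptic release RIMS1 and RPH3A were listed at 0 in every library.

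Neighbouring genes can share reads with a RAB gene. RefSeq's gene table for goat (assembly ARS1.2) held 48 of the 52 RAB genes by name, of which 23 had another gene within 1 kb and 9 overlapped one. RAB3A had MPV17L2, a gene of the mitochondrial ribosome, within 1 kb and without overlap. MPV17L2 had 6, 5 and 20 counts in NC and 3, 19 and 6 in Si-LIPG, too few for a test and far below those of RAB3A. Neither the strand of these genes nor that of the counting was known here. These counts therefore do not show whether reads of MPV17L2 transcripts were counted on RAB3A, which was not tested. RAB24 had PRELID1 within 1 kb and overlapped NSD1, a histone methyltransferase gene whose log2 fold change was 0.75 (edgeR, adjusted p = 0.427). How reads on bases shared by RAB24 and NSD1 were assigned is not given in the sources used here. RAB17 and RAB18 had no gene within 1 kb.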

How the data were processed

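Poly(A) RNA of 3 NC and 3 Si-LIPG libraries was sequenced with dUTP strand marking. The authors deposited read counts per gene for each library, not normalized, and FPKM values of the same genes in 1 table. The submitters' processing notes name fastp, HISAT2, SAMtools and HTSeq, and the build and strand setting are not given in the sources used here. Gene lengths were derived from FPKM and counts. Each file ends in 5 summary rows of reads that no gene received, which entered neither tests nor, in the main comparison, library sizes. They held all but 0.997% to 2.88% of the reads of a library.

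Tests used edgeR 4.0.16 in R 4.3.3 (filterByExpr, TMM, quasi-likelihood test, no covariates, Benjamini-Hochberg adjustment over 6574 genes). A prior count of 2 was added for log2 CPM. For the change against other RAB genes, their summed counts replaced the library size. Alternatives were DESeq2 1.42.0, DESeq2 size factors, library sizes alone, all reads in the files, no filter, at least 10 counts in every library, a replicate block, limma 3.58.1 on log2(FPKM + 1) and log2(FPKM + 0.1), the geometric mean of the other RAB genes as the reference, and each library left out. The edgeR procedure was run on simulated counts, with TMM and with known library sizes. DESeq2, limma and the replicate block were not simulated. No library was a copy of another of its own group, as chi-square per degree of freedom between replicates was at least 4.34.

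RAB3A as the gene to contrast, RAB members and lists of roles, regulators and markers were chosen with earlier results of these data known. Genes named in full were RAB3A, members called or at the criterion, the 3 highest by mean FPKM and those at both ends of the log2 fold changes, with the RAB3 paralogs, the called regulators and neighbours within 1 kb. The RAB3 regulators, other tested members and the untested members counted in 3 Si-LIPG libraries were named for their roles or counts, some after their values were seen. No sequence is printed because none was used here.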

Additional observations from a re-analysis of the deposited data

How the results depend on the processing

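RAB3A had a negative log2 fold change under every alternative run. It was -2.58 to -1.63 when 1 library was left out, -1.38 with library sizes alone (edgeR, adjusted p = 0.0439) and -0.57 scaled to all reads. With limma on log2(FPKM + 1) and log2(FPKM + 0.1) it was -1.45 and -1.46 (adjusted p = 0.109 and 0.170). DESeq2 gave -1.99 (adjusted p = 0.000295). Relative to the other RAB genes it lay between -2.80 and -1.85 with 1 library left out, and was -1.84 against their geometric mean (adjusted p = 0.0343).

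The number of RAB genes called was 1 in the main comparison, 2 scaled to all reads (both higher), 2 with at least 10 counts in every library (both lower), 0 with either limma fit and 0 to 2 with 1 library left out, the 2 without NC 3. Limma called no gene at all, with 1912 and 1671 at an unadjusted p under 0.05. At the criterion of the study the main 4 RAB genes (1 higher, 3 lower) became 7 with library sizes alone (6 higher, 1 lower), 15 scaled to all reads (all higher), 7 without a filter (4 higher, 3 lower), 6 with DESeq2 (3 and 3), 6 and 5 with limma (5 and 4 higher, 1 lower in each), 2 with at least 10 counts (both lower) and 2 to 5 with 1 library left out, the 2 without Si-LIPG 3. The 2 regulators and effectors called, both lower, became 3 higher scaled to all reads, 0 with library sizes alone, 0 with either limma fit and 0 to 3 with 1 library left out, the 3 without NC 3. The median log2 fold change of the tested RAB genes, 0.38, was 0.91 with library sizes alone, 1.79 scaled to all reads, 0.55 without a filter, and 0.95 and 0.99 with limma. RAB17 (0.083), RAB24 (0.32) and MICAL1 (0.077) changed sign when scaled to all reads. Not all settings tested the same RAB genes. DESeq2 and the fit without a filter took in 14848 genes, and at least 10 counts in every library left 2757. With DESeq2 34 RAB genes had a positive log2 fold change and 14 a negative one. Without a filter these were 36 and 12, with at least 10 counts 6 and 2, and in the main comparison 16 and 6. Fits with 1 library left out also differed in the genes tested. The cause of the shifts between settings was not tested.

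The deviations of libraries with the same number had correlations of 0.210, 0.0639 and 0.105. NC 1 correlated best with Si-LIPG 1 and NC 3 with Si-LIPG 3, but NC 2 also correlated best with Si-LIPG 3. Against Si-LIPG 2 and 3, NC 1 gave -0.119 and -0.149. By chi-square per degree of freedom library 1 was the furthest from the others in both groups. It gave 16.6 and 16.4 against 4.75 between the others in NC, and 10.9 and 13.0 against 4.34 in Si-LIPG. The labels do not say whether a number marks a shared culture, so the main comparison did not pair them. A replicate block raised the calls over all tested genes from 428 to 925. With a replicate block 3 RAB genes, RAB17 among them (adjusted p = 0.0310), and 4 regulators and effectors were called, and the RAB3A log2 fold change was -2.05 (adjusted p = 2.21e-12), or -2.27 relative to the other RAB genes. Counts below 10 per library limit most RAB genes other than RAB3A, of which 7 had at least 10 counts in every library.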
